A study of Mus musculus with 21 samples.

Results

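Regions of open chromatin that lay more than 100 kb from every protein-coding transcription start were followed across the livers of individual male mice that differed in STAT5 activity. The peaks of 18 DNase-seq lists, merged wherever they overlapped by at least 1 bp, gave 68362 union regions on the mouse build mm9, and transcription starts were those of GENCODE vM1. Of these, 8550 lay more than 100 kb from every protein-coding start, and 5570 of them (8.15% of the union) had a peak in 2 to 17 livers. Those 5570 are called remote regions here. Left aside were 2107 equally distant regions with a peak in 1 liver and 873 with a peak in all 18. The name gene desert holds for most of the 5570 but not for all: 3791 (68.1%) were intergenic, 1492 (26.8%) lay in an intron of a long protein-coding gene, 194 in a non-coding gene, 64 touched a coding exon, 22 another exon and 7 a pseudogene. When starts of all annotated transcripts were counted, 3083 of the 5570 were still more than 100 kb from any start.

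The livers came from untreated, pituitary-intact male mice of the outbred CD-1 stock, 8 to 10 weeks old, and each list is 1 animal. DNase-seq sequences the short fragments that DNase I releases from nuclei, so that accessible DNA appears as a peak of reads. Each liver was classed by the DNA-binding activity of STAT5 in a protein extract of the same liver (an electrophoretic mobility shift assay): 8 livers formed the class STAT5_High and 10 the class STAT5_Low. Another 3 livers titled outlier by the submitters, 2 STAT5_High and 1 STAT5_Low, were set aside by them, as accessibility in these livers went with the opposite class, and were not analysed here. The classes compared were thus chosen partly on the measure compared, which favours a difference between them. By a prefix in the titles the livers fall into 3 collections, of unstated meaning: G74A with 2 STAT5_High and 5 STAT5_Low livers, G92 with 3 STAT5_High and 2 STAT5_Low, and G99 with 3 of each.

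In male mice the pituitary releases growth hormone in bursts, and each burst switches on hepatic STAT5, a transcription factor that enters the nucleus and binds DNA at a palindromic sequence, TTCNNNGAA. Enhancers, the DNA elements from which such factors act on genes, can lie very far from the promoter they regulate and are marked by open chromatin. A stretch with no promoter in reach therefore holds candidate distal elements, but a distance alone does not tell which gene an element serves. Gene names given to regions below are those of the nearest start and stand for a position, not for a target.

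Libraries held 12890880 to 23395665 tags and lists 18673 to 45144 peaks. Tags, in units of 1e6, averaged 16.1 ± 1.27 in STAT5_High (SD, n = 8) and 18.5 ± 2.79 in STAT5_Low livers (SD, n = 10). STAT5_High replicate 4 had the shortest list and stood apart from the other livers in what follows. All 6 hepatocyte marker genes examined (Alb, Apoa1, Apob, Ttr, Hnf4a and Fga) had a peak within 1 kb of a start in all 18 livers. Among markers of other cells, those of macrophages (Clec4f, Cd68, Csf1r) and cholangiocytes (Krt19, Krt7, Epcam) had none in any liver, and neither did Stab2, Des, Pdgfrb, Cd3e, Neurod1 and Myod1. Kdr had a peak in 4 livers, Ptprc in 2, Pecam1 and Ins2 in 1 each, and Reln in 15 (5 of 8 STAT5_High and 10 of 10 STAT5_Low). In whole liver, fewer open cells and less opening per cell cannot be told apart. An absent peak means that none was called at this depth, not that the site was closed.

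Of the 4 regions whose occupancy separated the classes completely, 3 are shown first, with the 3 called in the opposite direction, as the 300 bases (mm9, plus strand) at the centre of each, so that the STAT5 motif can be seen in some and its absence in others. Capitals mark TTCNNNGAA. The first 3 were occupied in all 8 STAT5_High livers and in 0 of the 10 STAT5_Low livers: near Myc, the gene of a growth-promoting transcription factor, at chr15:61995598-61995897, in an intron of Gmds, an enzyme of GDP-fucose synthesis, at chr13:32285168-32285467, and beyond Rdh10, a retinol dehydrogenase of retinoic acid synthesis, at chr1:16261945-16262244. The other 3 were those called in the opposite direction. They lay outside Gmds on the other side of its start at chr13:32585506-32585805, in an intron of Ntrk2, the receptor of the neurotrophin BDNF, at chr13:59061766-59062065, and near Gp2, a membrane protein of secretory granules, at chr7:126477118-126477417.
Myc, higher in STAT5_High: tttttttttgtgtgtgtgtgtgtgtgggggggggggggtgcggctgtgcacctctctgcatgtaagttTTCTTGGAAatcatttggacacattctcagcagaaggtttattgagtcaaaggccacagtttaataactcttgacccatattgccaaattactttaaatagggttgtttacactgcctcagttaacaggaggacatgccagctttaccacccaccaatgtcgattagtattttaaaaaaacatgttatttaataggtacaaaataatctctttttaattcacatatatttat
Gmds, higher in STAT5_High: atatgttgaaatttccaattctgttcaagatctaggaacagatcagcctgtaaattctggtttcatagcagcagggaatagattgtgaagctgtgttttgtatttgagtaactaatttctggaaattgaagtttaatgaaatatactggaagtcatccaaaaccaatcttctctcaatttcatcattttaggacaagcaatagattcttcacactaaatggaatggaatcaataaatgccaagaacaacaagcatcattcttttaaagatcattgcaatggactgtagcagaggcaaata
Rdh10, higher in STAT5_High: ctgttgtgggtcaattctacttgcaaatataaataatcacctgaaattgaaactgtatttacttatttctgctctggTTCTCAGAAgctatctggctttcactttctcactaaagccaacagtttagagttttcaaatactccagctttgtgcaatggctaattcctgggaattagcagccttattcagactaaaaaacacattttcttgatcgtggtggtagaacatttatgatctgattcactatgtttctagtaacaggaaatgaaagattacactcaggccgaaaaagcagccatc
Gmds, higher in STAT5_Low: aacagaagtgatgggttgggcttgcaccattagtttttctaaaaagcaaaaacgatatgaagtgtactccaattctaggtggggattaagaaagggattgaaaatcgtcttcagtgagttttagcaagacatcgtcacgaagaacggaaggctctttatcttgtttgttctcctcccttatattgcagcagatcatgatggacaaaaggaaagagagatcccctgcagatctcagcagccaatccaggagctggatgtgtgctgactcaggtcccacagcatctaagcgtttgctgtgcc
Ntrk2, higher in STAT5_Low: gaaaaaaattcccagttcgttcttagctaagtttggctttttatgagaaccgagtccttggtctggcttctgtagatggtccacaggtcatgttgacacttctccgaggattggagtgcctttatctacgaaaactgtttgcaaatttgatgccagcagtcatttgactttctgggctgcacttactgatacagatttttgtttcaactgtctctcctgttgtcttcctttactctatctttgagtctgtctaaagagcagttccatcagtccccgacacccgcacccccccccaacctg
Gp2, higher in STAT5_Low: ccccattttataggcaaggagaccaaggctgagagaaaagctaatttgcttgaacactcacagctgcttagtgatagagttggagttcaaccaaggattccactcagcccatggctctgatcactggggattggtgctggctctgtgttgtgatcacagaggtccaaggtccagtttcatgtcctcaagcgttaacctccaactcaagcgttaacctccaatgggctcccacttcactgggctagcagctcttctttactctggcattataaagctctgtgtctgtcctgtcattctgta
The windows at Myc and Rdh10 each held the motif, TTCTTGGAA at chr15:61995666-61995674 and TTCTCAGAA at chr1:16262022-16262030. The 4 other windows held none.

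Most remote regions were found in few livers or in nearly all. The median remote region had a peak in 7 livers. In 2 to 4 livers were 1898 (34.1%), in 5 to 13 were 2189 (39.3%) and in 14 to 17 were 1483 (26.6%), and the 2 most common occupancies were 2 livers (901 regions) and 17 livers (712). Nearer distal regions, the 29760 union regions in 2 to 17 livers that lay more than 1 kb and at most 100 kb from every protein-coding start, were spread much alike, with a median of 8 livers and 32.7%, 38.8% and 28.5% in the same ranges. The commonest cell of the grid of livers occupied in each class held 660 regions, those occupied in 7 STAT5_High livers and all 10 STAT5_Low livers. Peaks in STAT5_High livers alone were seen at 358 remote regions (6.43%) and in STAT5_Low livers alone at 613 (11%), with a median of 2 livers in both cases. Of nearer distal regions, 5.08% and 12.8% were occupied in 1 class alone.

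**Figure D1:**
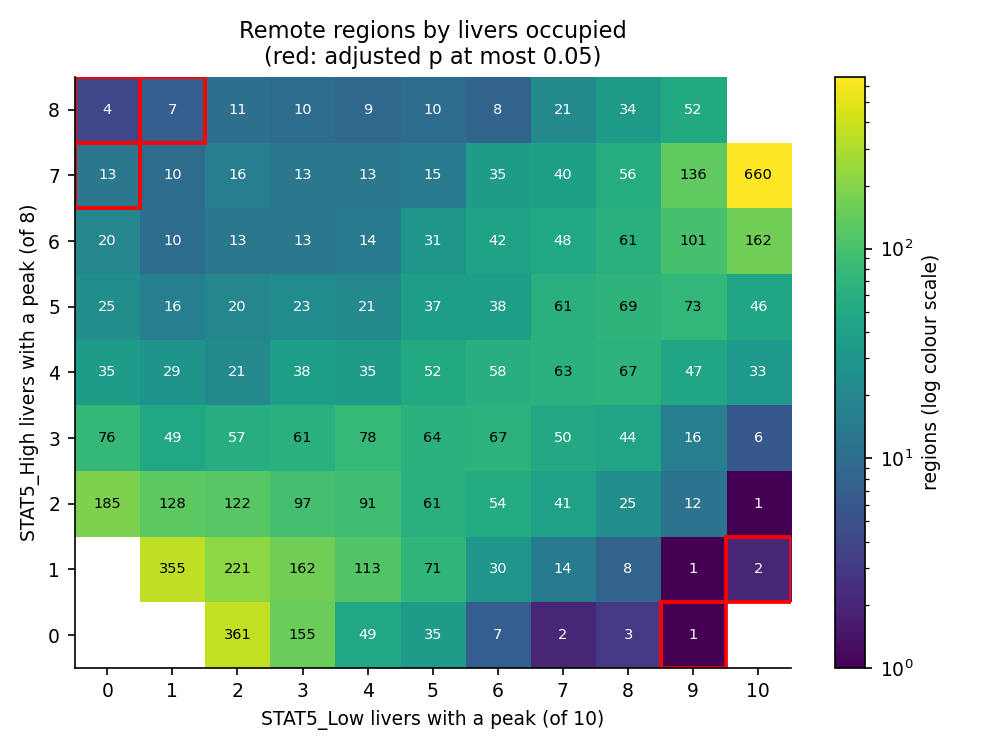
Remote regions by the number of STAT5_Low livers (horizontal axis, of 10) and STAT5_High livers (vertical axis, of 8) that had a peak there, with the number of regions printed in each cell and its colour on a log scale. Red frames mark the cells whose adjusted p was at most 0.05, with 4, 7 and 13 regions at the upper left and 2 and 1 at the lower right.

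Presence at remote regions differed between the classes at 27 sites. Higher in STAT5_High were 24 and higher in STAT5_Low 3, among the 2189 remote regions in 5 to 13 livers, the range where the test could reach a p of 0.01 or lower. These are 1.1% and 0.137% of the remote regions tested. Over all 15631 union regions tested the shares were 0.979% (153 regions) and 0.134% (21 regions), so both counts sat near the background. Numbers of livers with and without a peak were compared by Fisher's exact test (two-sided), with Benjamini-Hochberg adjustment over the 15631 regions and a threshold of 0.05. At an unadjusted p under 0.05, 174 remote regions (7.95%) leaned to STAT5_High and 108 (4.93%) to STAT5_Low, beside 6.01% and 8.09% of all tested regions and 6.27% and 8.36% of nearer distal ones. An exact test stratified by collection, whose smallest attainable p is 0.000238, called 0 remote regions towards STAT5_High and 0 towards STAT5_Low (154 and 82 with p under 0.05 before adjustment). Its adjusted p was 0.0775 even for regions that separated the classes completely. That value rests on the smallest attainable p and on how many regions reached it. Regions that separated the classes completely did so inside each collection as well. Why the calls were lost was not tested. The count of 24 became 39 without STAT5_High replicate 2 and 37 without STAT5_High replicate 4, and the count of 3 became 5 without STAT5_Low replicate 1 or 6. With equal numbers of top peaks in every list, 81 and 3 of 1026 remote regions tested were called. Of the 15 regions named below, 7 were among those still called. The share of all union regions called under that setting is not given here, so these counts cannot be set against a background.

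Complete separation of the classes was seen at 4 remote regions, each occupied in all 8 STAT5_High livers and in 0 of the 10 STAT5_Low livers (exact p of 2.29e-05, the lowest this design allows, and adjusted p of 0.00744 by Fisher's test). Fold enrichment below is the authors' value, the ratio of the summit's read pileup to that modelled for its surroundings in the same library. The intergenic region nearest to Pik3c3, the class III phosphoinositide 3-kinase of autophagy (chr18:29933977-29934838), lay 497563 bp from its start, with 4021493 bp to the next start on the other side, that of Celf4. Its peaks had fold enrichments from 6.21 to 12.8 (median 10.1) in the 8 STAT5_High livers. In Gmds (chr13:32284979-32285655, 144828 bp from the Gmds start) they ran from 6.07 to 16.9 (median 8.39). In an intron of Stau2, an RNA-binding protein gene (chr1:16261752-16262436, 165897 bp from the start of Rdh10), they ran from 3.97 in replicate 2 to 13.2 in replicate 3 (median 8.44). In the non-coding gene Pvt1 (chr15:61995428-61996067, 176451 bp from the start of Myc), the range was 4.57 in replicate 4 to 8.87 in replicate 5 (median 5.96). At 3 of the 4 regions STAT5_High replicate 5 had a fold above 12, and no STAT5_Low liver had a peak at any of them. In the authors' list of pooled STAT5_Low reads, the Gmds and Rdh10 regions had no peak, while the Pik3c3 and Myc regions had peaks of fold 2.26 and 2.3, against 11.3 and 6.82 in the pooled STAT5_High list.

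A further 7 regions were occupied in all 8 STAT5_High livers and in 1 of the 10 STAT5_Low livers (exact p of 0.000411 and adjusted p of 0.037 by Fisher's test). The farthest from any start was an intergenic site (chr2:8045651-8046437) 1043398 bp from Celf2, an RNA-binding splicing regulator, and 1753790 bp from the transcription factor gene Gata3. Its fold enrichment was 7.5 to 15.1 (median 8.84) in STAT5_High livers and 5.46 in STAT5_Low replicate 6, the exception. The intronic region of Lrp1b, a lipoprotein receptor-related gene (chr2:41877786-41878528), had 4.18 to 16.8 (median 9.35), and 4.9 in STAT5_Low replicate 7. Others lay near Gm9733 and 314632 bp from the carbonic anhydrase gene Car2 (chr3:15201058-15201685), in an intron of Hs2st1, a sulfotransferase of heparan sulfate (chr3:144108947-144109893), near Gm10295 (chr7:78342893-78343468), near the potassium channel gene Kcnj2 (chr11:111117249-111117875) and in an intron of Rad51l1, a gene of recombinational DNA repair (chr12:80749949-80751045). At these 5 the median fold in STAT5_High livers was 5.29 to 8.64 and the fold in the excepted STAT5_Low liver 3.96 to 4.63. The STAT5_Low livers that had such a peak were replicate 7 and replicate 10 (3 regions each) and replicate 6 (1 region).

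The other 13 regions were occupied in 7 STAT5_High livers and in 0 STAT5_Low livers (exact p of 0.000251 and adjusted p of 0.0319 by Fisher's test). STAT5_High replicate 4 was the liver without a peak at 7 of the 13, replicates 1 and 6 at 2 each, and replicates 2 and 7 at 1 each. By the rule of ranking, the region 208220 bp from Lyplal1, a lysophospholipase-like gene, and 308125 bp from the growth factor gene Tgfb2 (chr1:188149409-188150023) is named. Its fold was 5.05 to 15.6 (median 8.0) in the 7 livers. The remaining 12 had median folds from 4.0 to 8.48 and lay 104949 to 779188 bp from a start. Of these, a second Kcnj2 site (chr11:111130853-111131472) was picked out after its values were seen. The 2 Kcnj2 sites were 12977 bp apart, the closest pair among the 27, and the next closest were the 2 opposed Gmds sites, 299604 bp apart.

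Fewer sites had the opposite pattern. The intronic region of Ntrk2 (chr13:59061465-59062366, 151413 bp from its start) was occupied in 1 STAT5_High liver and in all 10 STAT5_Low livers, with folds of 4.33 to 12.0 (median 7.16) in STAT5_Low and 4.35 in STAT5_High replicate 2. The Gp2 region (chr7:126476907-126477627, 125157 bp from its start) had the same counts, with 3.71 to 7.82 (median 5.4) in STAT5_Low and 6.58 in STAT5_High replicate 8 (for both, exact p of 0.000251 and adjusted p of 0.0319 by Fisher's test). The intergenic Gmds region (chr13:32585260-32586051, 154777 bp from the Gmds start) was occupied in 0 STAT5_High and 9 STAT5_Low livers (exact p of 0.000411 and adjusted p of 0.037 by Fisher's test) and was weak, with folds of 2.92 to 5.03 (median 3.63). STAT5_Low replicate 9 lacked it. All 3 sites also had a peak in the authors' pooled STAT5_High list, with folds of 3.25 to 3.59. Of the 24 called towards STAT5_High, 15 had a peak in the pooled STAT5_Low list and 9 had none. The pooled lists rest on 128701824 STAT5_High and 184748725 STAT5_Low tags, and the shares were not compared by a test.

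**Figure D2:**
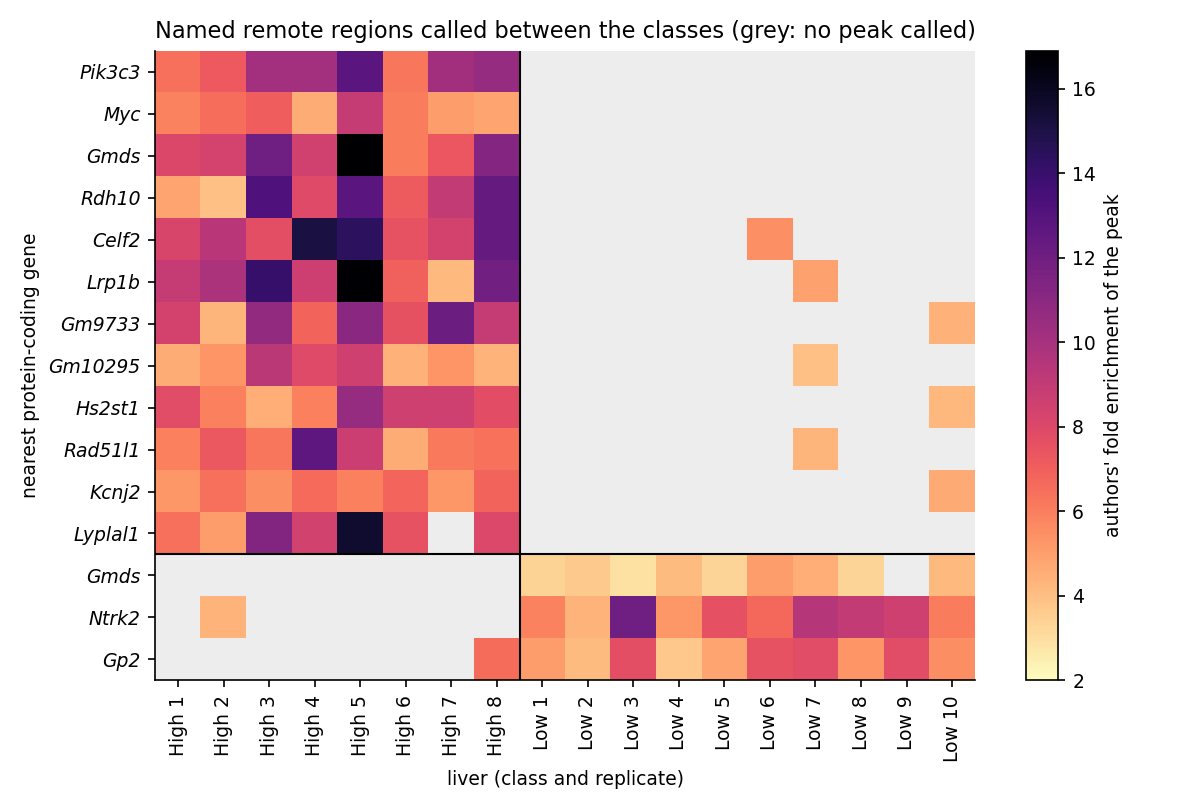
Fold enrichment, as given by the authors, of the peak at each of the 15 named remote regions (rows, by nearest protein-coding gene) in each liver (columns), with grey where no peak was called. The 12 upper rows are filled in 7 or 8 of the 8 STAT5_High livers, and the 3 lower rows in 9 or 10 of the 10 STAT5_Low livers.

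The STAT5 motif was common in the regions called towards STAT5_High. TTCNNNGAA lay in 19 of the 24 (79.2%, 95% Wilson interval 59.5 to 90.8), in 565 of 2162 remote regions tested without a call (26.1%, 24.3 to 28.0) and in 0 of the 3 called towards STAT5_Low. Median widths were 627.5, 577 and 792 bp. In 300-base windows at the region centre, the shares were 70.8% (17 of 24) and 15.8%, against 12.3% of the windows of all 41851 union regions in 2 to 17 livers. In the 19 regions the nearest match lay a median of 77.5 bp from the centre, and in 6 within 50 bp. Near Celf2 the match was TTCACGGAA, 6.0 bp from the centre of the region, and near Lyplal1 TTCCTAGAA, 5.0 bp from the centre. Without a match were the regions of Gmds, Cntnap5b, Grm8, Bcat1 and Zfp36l2. Rearranged words of the same letters were in 3 (CTTNNNAAG, 12.5%) and 5 (TCTNNNAGA, 20.8%) of the 24, and in 22.2% and 22.1% of those without a call.

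Motifs of liver factors were compared in the same way, as description only. FOXA words (TGTTTAC or TATTTAC) were in 11 of the 24 regions called towards STAT5_High (45.8%, Wilson interval 27.9 to 64.9) and 28.1% of those without a call. The HNF4 word CAAAGTCCA was in 2 of the 24 and 3.84%, the AP-1 word TGAGTCA in 6 of the 24 and 13.5%, and the core CTCF motif in 0 of the 24 and 1.9%. Over all remote regions against nearer distal ones, ATCAAT (ONECUT) was in 35.7% and 24.8%, TTGCNNAA (CEBP) in 37.3% and 30.6%, FOXA words in 27.0% and 21.8%, TTCNNNGAA in 24.8% and 21.2%, and the CTCF core in 2.01% and 2.52%. The control words were in 22.2% and 20.2% (CTTNNNAAG) and 21.4% and 19.9% (TCTNNNAGA). Base composition moves with these shares: median GC was 43.0% in remote and 46.3% in nearer distal regions, and its part in them was not tested. Both strands were searched, and a base could count for more than 1 motif.

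Except for STAT5_High replicate 4 (13.8%), the livers occupied from 35.5% to 63.2% of the remote regions, and the classes overlapped. STAT5_High livers had peaks at 771 to 3043 of the 5570 (median 2718) and STAT5_Low livers at 1975 to 3523 (median 2802). The means were 2480 ± 732 (SD, n = 8) and 2798 ± 520 (SD, n = 10), so STAT5_High was at -318 relative to STAT5_Low (two-sided exact permutation test over all assignments of livers, p = 0.321, adjusted p = 0.366 over 8 comparisons of the classes). STAT5_High replicate 4, with 771, was the lowest of all livers, and without it the difference was -77.1 (exact permutation p = 0.723). Within G74A, G92 and G99 the difference was 287, -773 and -458. The number occupied followed the length of the list (Pearson r = 0.955, permutation p = 1e-05, the smallest 100000 resamples can give; Spearman rho = 0.92, permutation p = 1e-05; 18 livers, 2 relations, adjusted p = 2e-05 for both). Without the 2 livers farthest from the median list length, r was 0.876. With tags, r was 0.354 (permutation p = 0.151) and rho 0.34 (permutation p = 0.169).

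Relative to nearer distal regions of the same livers, remote regions were occupied more in STAT5_High than in STAT5_Low livers. The share of remote regions with a peak minus the share of nearer distal regions with a peak was 1.07 ± 3.12 percentage points in STAT5_High (SD, n = 8) and -3.06 ± 3.39 in STAT5_Low (SD, n = 10). It ran from -3.89 to 6.41 in STAT5_High and from -7.35 to 0.941 in STAT5_Low, so the classes overlapped. The difference of 4.14 points passed the threshold (exact permutation p = 0.0183, adjusted p = 0.0489 over 8 comparisons). In both classes the G74A livers had the lowest mean, -3.02 in STAT5_High and -5.37 in STAT5_Low, and the difference was 2.35 points within G74A, 5.9 within G92 and 1.03 within G99, with exact p of 0.238, 0.1 and 0.3. These collections cannot go below 0.0476, 0.1 and 0.1. List length and depth also differed between livers, and with equal numbers of top peaks in every list the difference was 6.2 points (exact permutation p = 0.00345). The underlying shares were 44.5% ± 13.1 of remote and 43.5% ± 14.4 of nearer distal regions in STAT5_High (n = 8), and 50.2% ± 9.33 and 53.3% ± 9.43 in STAT5_Low (n = 10).

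**Figure D3:**
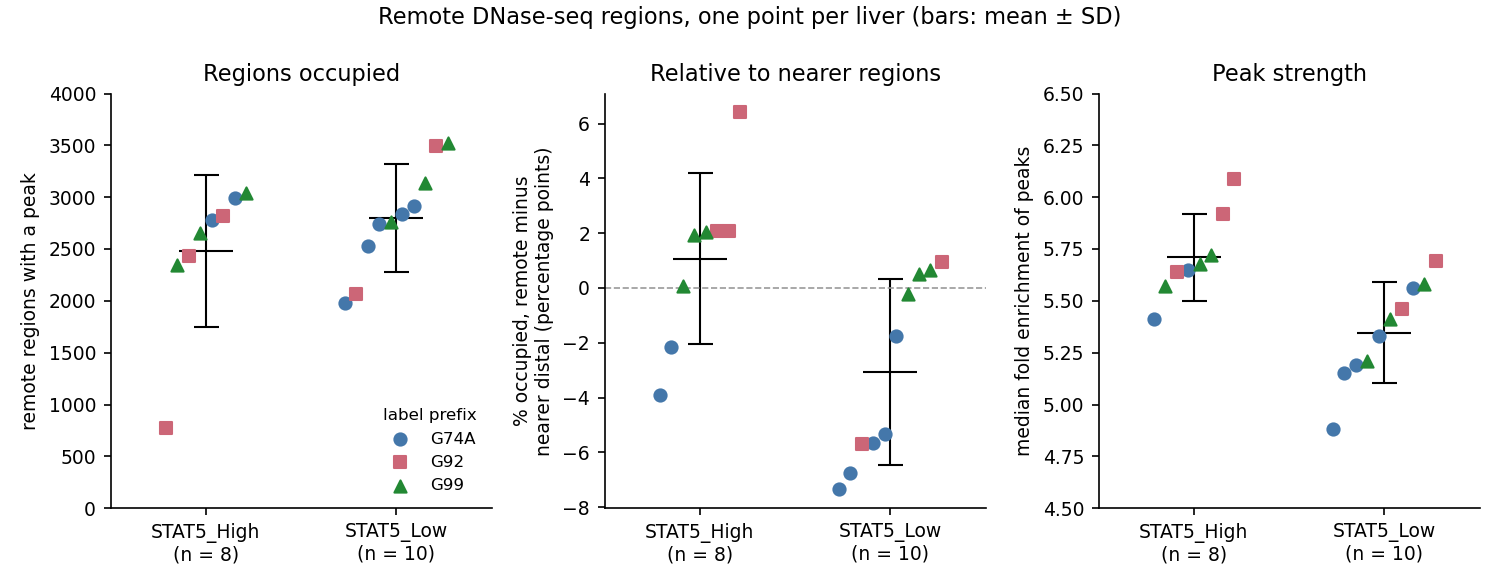
For each liver (points, shaped and coloured by the collection prefix; bars show the mean ± SD of 8 STAT5_High or 10 STAT5_Low livers), the number of remote regions with a peak, the percent of remote minus the percent of nearer distal regions with a peak, and the median fold enrichment of peaks in remote regions, on an axis from 4.5 to 6.5. The middle panel spans -3.89 to 6.41 points in STAT5_High and -7.35 to 0.941 in STAT5_Low, and STAT5_High replicate 4 is the single point at 771 regions.

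On average, pairs of the same class shared more of their remote regions than pairs of opposite classes. Pairs of STAT5_High livers alone, with replicate 4 among them, did not. The Jaccard index, the regions occupied by both livers of a pair over those occupied by either, had a mean of 0.5 for 2 livers of the same class and 0.452 for livers of opposite classes, differing by 0.0473 (adjusted p = 0.00128 over 8 comparisons, unadjusted p = 0.00016, exact permutation test). Pairs of STAT5_Low livers averaged 0.536 and pairs of STAT5_High livers 0.441, the latter below the mean of opposite classes. Over nearer distal regions the means were 0.513 for the same class and 0.461 for opposite classes. STAT5_High replicate 4 averaged 0.134 with the other livers, and its pairs are part of the STAT5_High and the opposite-class means. Without it the class difference was 0.041 (exact permutation p = 0.000771). The mean of STAT5_High pairs alone was not computed without it. The removal of the livers titled outlier favours this difference. Among pairs from different collections the averages were 0.487 within and 0.43 between classes. For single collections the exact permutation p cannot go below 0.0476 in G74A, 0.1 in G92 and 0.1 in G99. Inside G74A, G92 and G99 the class difference was 0.0198, 0.00132 and 0.0427, with exact p of 0.381, 1.0 and 0.1.

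Peaks at remote regions stood higher over their local background than nearer ones in every liver, on fewer reads. The median fold enrichment of peaks in remote regions exceeded that in nearer distal regions in 18 of 18 livers, by 0.385 ± 0.0762 (SD over 18 livers; exact sign-flip permutation p = 7.63e-06, the smallest 262144 sign flips can give). The authors' pileup, the reads that overlap at the summit, was lower in 18 of 18 livers, by 2.36 ± 0.837 reads (exact sign-flip permutation p = 7.63e-06), with medians of 15 to 20 in remote and 17 to 24 in nearer distal regions. The rank of the authors' -log10 q within a list was about the same: the median percentile differed by 0.535 ± 1.68 and was lower in remote regions in 7 of 18 livers (exact sign-flip permutation p = 0.198). That difference became 1.08 without STAT5_High replicate 4 (exact sign-flip permutation p = 0.00134).

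Fold enrichment at remote regions also differed between the classes, in the same direction as at nearer distal ones. The median fold was 5.41 to 6.09 in STAT5_High livers (5.71 ± 0.21, SD, n = 8) and 4.88 to 5.69 in STAT5_Low livers (5.35 ± 0.244, SD, n = 10), higher in STAT5_High by 0.364 (adjusted p = 0.0133 over 8 comparisons, unadjusted p = 0.00331, exact permutation test). The value is not scaled between libraries, and the part of depth in it was not tested. The 2 deepest libraries, STAT5_Low replicates 4 and 5, had medians of 4.88 and 5.15, and the shallowest, STAT5_Low replicate 1, had 5.33. Within G74A, G92 and G99 the difference was 0.309, 0.312 and 0.254. The median fold of nearer distal peaks averaged 5.29 in STAT5_High and 4.99 in STAT5_Low livers, which was not tested between the classes. Set against nearer distal peaks of the same liver, the gain in fold was 0.424 in STAT5_High and 0.355 in STAT5_Low, a difference of 0.0692 that did not pass after adjustment (exact permutation p = 0.0494, adjusted p = 0.0989). The median percentile within the list, 36.7 ± 4.03 against 34 ± 2.38, differed by 2.71 (exact permutation p = 0.0743, adjusted p = 0.119) and by 1.39 without STAT5_High replicate 4. Of all peaks in a list, 7.48% ± 1.35 in STAT5_High (n = 8) and 7.59% ± 0.667 in STAT5_Low (n = 10) lay in remote regions (exact permutation p = 0.868).

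The more livers a remote region was found in, the stronger its peaks, as at nearer distal regions. A liver counts only where its peak passed the cutoff, so number of livers and strength are not independent measures. Median fold, over the mean of each region's peaks, was 4.56 for regions in 2 livers, 5.23 in 9, 6.14 in 15 and 7.42 in 17, beside 9.29 for the 873 equally distant regions in all 18 livers. The within-list percentile went from 15.4 to 25.6, 37.8, 56.6 and 75.4 over the same steps. Nearer distal regions had 4.35, 4.8, 5.55, 6.78 and 8.28 in fold, lower at each occupancy, and percentiles of 15.1, 24.7, 37.0, 56.7 and 74.7. The 24 regions called towards STAT5_High had a median percentile of 45.6, against 25.5 for tested regions without a call and 32.3 for the 3 called towards STAT5_Low. These values average only livers with a peak, for the 24 almost all STAT5_High. The contrast is therefore not independent of how the 24 were chosen, and it was not tested.

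**Figure D4:**
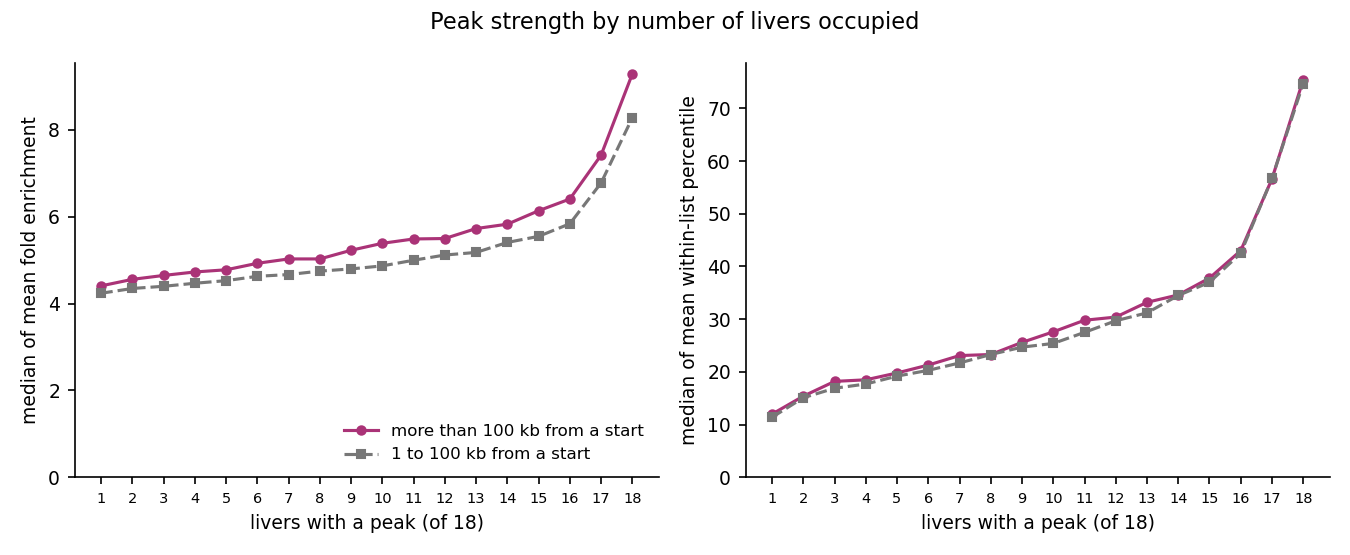
Median fold enrichment (left) and median within-list percentile of the -log10 q (right) of peaks, by the number of livers in which a region had a peak, for regions more than 100 kb (circles, solid) and 1 to 100 kb (squares, dashed) from every protein-coding start. Fold goes from 4.41 to 9.29 in the former and from 4.24 to 8.28 in the latter, while the percentile curves nearly coincide.

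With distance from starts, regions became sparser, poorer in GC and slightly stronger. The median remote region lay 181432 bp from the nearest protein-coding start. Sequenced DNA 100 to 200 kb from a start held 3090 remote regions at 8.91 per Mb, DNA at 200 to 500 kb 1979 at 5.23, DNA at 500 to 1000 kb 421 at 2.4, and DNA farther away 80 at 1.26, against 19.4 per Mb for nearer distal regions in their own territory. Median GC of the regions was 44.1%, 42.3%, 39.3% and 36.7% in these bins, where the DNA itself had 40.9%, 39.5%, 37.8% and 36.9%. Median fold was 5.14, 5.26, 5.54 and 5.8. The number called towards STAT5_High was 10 of 1194 tested, 10 of 793, 3 of 170 and 1 of 32, beside 0.979% of all tested union regions. The last 2 bins rest on 3 calls and 1 call. The 3 regions called towards STAT5_Low were all in the nearest bin. Just inside the limit were regions 100001 bp from 1700011I03Rik, 100020 bp from Ifngr1 and 100025 bp from Nav2, with a mean fold of 3.7, 3.85 and 5.36. Just outside were regions 99995 bp from Ivns1abp, 99962 bp from Zfp36l2 and 99940 bp from Stk24, with 4.24, 5.34 and 3.98.

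The 3 most remote regions all lay in the same interval of chromosome 1 next to the cadherin gene Cdh20. The farthest, 2250122 bp from its start (chr1:104413936-104414984), was occupied in 4 STAT5_High and 6 STAT5_Low livers and had a mean fold of 8.21. The others, 2207178 bp (chr1:104457541-104457928) and 2206662 bp away (chr1:104458087-104458444), had peaks in 2 and 4 and in 1 and 1 livers, with a mean fold of 6.08 and 4.51. By chromosome, density in DNA more than 100 kb from a start was 4.97 to 9.54 remote regions per Mb on the autosomes, highest on chromosomes 13 (9.54) and 19 (9.4). The X chromosome had 1.94 per Mb. On the Y chromosome 46 regions fell in 0.895 Mb of such DNA, or 51.4 per Mb. That density rests on little DNA, and 19 of the 46 lay in a single stretch of 50.1 kb. Their median fold was 2.65, beside 5.22 over all remote regions.

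Remote regions came in groups. Joined where the gap was at most 50 kb, 4132 of 5570 (74.2%) belonged to 1168 groups of 2 or more and 1438 stood alone. There were 237 groups of 5 or more with 1764 regions and 42 groups of 10 or more with 567. The median gap to the next remote region was 14028 bp, and 43.0% had another within 10 kb. Regions in groups of 5 or more were occupied more often than lone ones in 18 of 18 livers, by 9.28 ± 4.47 percentage points (SD over 18 livers, range 2.03 to 15; exact sign-flip permutation p = 7.63e-06). That excess was 8.34 points in STAT5_High and 10.0 in STAT5_Low livers, a difference of -1.7 (exact permutation p = 0.434). Their median occupancy was 9 against 6 livers and their median fold 5.08 against 5.33. Of 677 tested regions in such groups 7 were called towards STAT5_High and 2 towards STAT5_Low, and of 582 tested lone ones 3 and 1, beside 0.979% and 0.134% of all tested union regions.

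The largest group had 24 remote regions over 245 kb between Gadd45g, a stress-response gene, and Diras2, a small GTPase gene (chr13:52086672-52331993). STAT5_High livers had peaks at 2 to 17 of them (median 13) and STAT5_Low livers at 3 to 14 (median 12). The next, of 22 regions over 278 kb beyond Myc (chr15:61946117-62224515), included regions inside Pvt1 and held the Myc region described above. Its occupancy was 5 to 17 (median 16) in STAT5_High and 8 to 17 (median 12) in STAT5_Low. Groups of 19 lay between Ly86, a gene of innate immune recognition, and the zinc-finger gene Rreb1 (chr13:37542698-37696048) and beyond Gm3395 on the Y chromosome (chrY:2851207-2901269), where the median fold was 2.65. Then followed 18 regions in introns of Wwox, an oxidoreductase gene, towards the transcription factor gene Maf (chr8:117064778-117339477), 17 between the transcription factor gene Ets1 and Kirrel3 (chr9:32678132-32909166), 17 between Serp2 and 9030625A04Rik (chr14:77098394-77301818) and 16 between Prok2, a secreted ligand, and Rybp, a Polycomb-associated gene (chr6:99918800-100124590).

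None of the 8 groups passed the threshold between the classes after adjustment over the 8 (exact permutation test on regions occupied per liver, unadjusted p 0.00809 to 0.539). Closest was the Wwox group, occupied at 0 to 13 regions in STAT5_High (mean 8.5 ± 3.82, n = 8) and 10 to 15 in STAT5_Low (mean 11.9 ± 1.66, n = 10; exact permutation p = 0.00809, adjusted p = 0.0647). STAT5_High replicate 4 had none of its 18 regions. Taken as the excess over the number expected from each liver's share of all remote regions, the Myc group had 2.76 more in STAT5_High (exact permutation p = 0.0145, adjusted p = 0.0579), the Gadd45g group 2.64 more (exact permutation p = 0.041, adjusted p = 0.109) and the Wwox group 2.37 fewer, a difference of -2.37 (exact permutation p = 0.0128, adjusted p = 0.0579). With equal numbers of top peaks per list, 2 groups passed, those of Gadd45g and Myc, higher in STAT5_High by 2.15 and 4.4 regions (exact permutation p = 0.00263 and 0.000663), while the Wwox difference was -0.2.

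**Figure D5:**
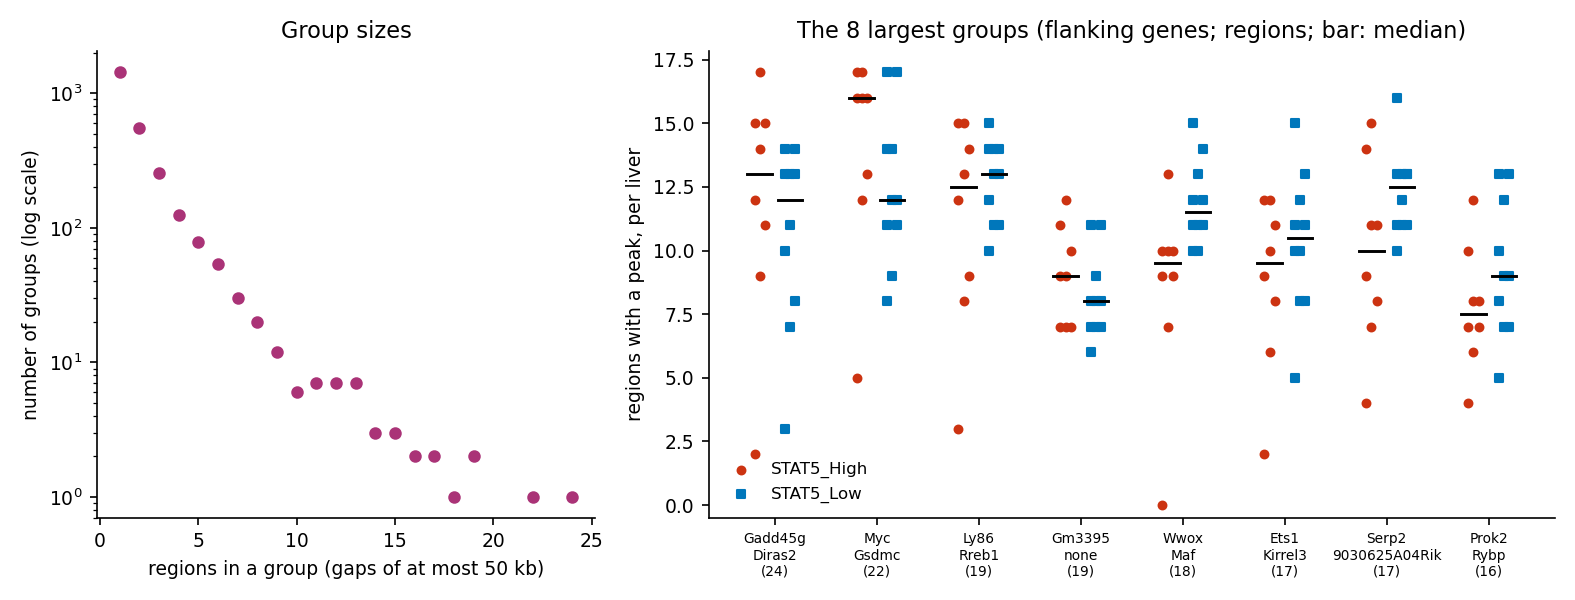
Left, the number of groups (log scale) by the number of remote regions in them, joined over gaps of at most 50 kb. Right, for the 8 largest groups, named by the flanking protein-coding genes with their number of regions, the regions with a peak in each STAT5_High (circles) and STAT5_Low (squares) liver, with the median as a bar: in the Myc group 16 and 12, in the Wwox group 9.5 and 11.5.

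Between neighbouring protein-coding starts, 1383 intervals held a remote region, and 121 intervals with 10 or more held 1804 (32.4%). The fullest were Wwox to Maf (1270 kb, 37 regions, 29 of them intronic) and Myc to Gsdmc (1820 kb, 37 regions), followed by Rad51l1 to Zfp36l1 (799 kb, 34 regions), Nmbr to Cited2 (2960 kb, 30), Maf to Dynlrb2 (797 kb, 26) and Id2 to Rnf144a (1320 kb, 26). Maf, a bZIP transcription factor gene, thus had a crowded interval on either side. In the Myc interval the median STAT5_High liver occupied 66.2% of regions and the median STAT5_Low liver 48.6%, and in the Maf to Dynlrb2 interval 44.2% and 61.5%. The Myc spans overlapped widely, 21.6 to 75.7% in STAT5_High with 32.4 to 75.7% in STAT5_Low. The Maf to Dynlrb2 spans overlapped in part, 0 to 50% with 34.6 to 73.1%, and the median STAT5_Low liver lay above every STAT5_High liver. In Id2 to Rnf144a, next to the gene of an inhibitor of helix-loop-helix factors, the regions were in a median of 14.5 livers.

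Remote regions were then described by the genes of 4 lists, taking a region whose nearest or flanking start belonged to the gene. Beside liver transcription factors lay 370 regions (24 of 46 genes), of which 135 were tested and 2 called towards STAT5_High, beside Myc and Nr2f2, and 0 towards STAT5_Low. At an unadjusted p under 0.05, 23 of the 135 leaned to STAT5_High and 6 to STAT5_Low, where the shares over all remote regions tested were 7.95% and 4.93% and over all union regions tested 6.01% and 8.09%. Beside genes of growth hormone, growth factor and cytokine signalling lay 133 (19 of 47 genes), with 49 tested and 2 called towards STAT5_High, 1 of them beside Tgfb2. Developmental regulators had 286 (44 of 68 genes), with 98 tested and 4 called towards STAT5_High, beside Sox5, Lmo4, Gata3 and Foxc1. The nearest starts of these 4 regions were those of Bcat1, Hs2st1, Celf2 and Gmds, in the same order. Genes of bile acid, lipid and drug metabolism had 50 (7 of 45 genes), with 17 tested and 1 called towards STAT5_High, beside Lrp1b. No list held a call towards STAT5_Low. Over all union regions tested, 0.979% were called towards STAT5_High and 0.134% towards STAT5_Low, and the lists were not compared with these shares by a test. In the last 3 lists, regions at an unadjusted p under 0.05 numbered 3 towards STAT5_High and 3 towards STAT5_Low of 49, 10 and 1 of 98, and 2 and 0 of 17. The median difference in the share of livers, STAT5_High minus STAT5_Low, was -12.5, -10.0, -12.5 and -7.5 points in these lists and -12.5 over all remote regions, and median fold was 5.1, 5.13, 5.16 and 5.68, beside 5.22.

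Single genes varied around these medians. Among genes of the 4 lists, those with the most remote regions beside them were Maf (63), Myc (47) and Sox5, a regulator of cell fate (34). Next to Maf, 41.3% of region and liver pairs were occupied in STAT5_High and 57.0% in STAT5_Low, and next to Myc 56.4% and 48.9%, beside 44.5% and 50.2% over all remote regions. Beside Onecut1, a hepatocyte transcription factor, 20 regions were occupied at 58.8% and 31.5%. None of its 9 tested regions was called, and 5 leaned to STAT5_High and 0 to STAT5_Low at an unadjusted p under 0.05. Nr5a2, a nuclear receptor of bile acid synthesis, had 14 regions at 54.5% and 38.6%, and Foxa2, a pioneer factor, 17 at 58.1% and 51.2%, the same regions that lie beside Pax1. Nfia had 5 at 35.0% and 64.0%. The other liver factors with more regions than Nr5a2 had the lower share in STAT5_High. They were Id2 (26 regions, 59.6% and 68.5%), Nfib (25, 50.5% and 55.2%), Tcf7l2 (19, 44.7% and 58.9%) and Gata6 (18, 38.2% and 51.1%). All regions beside the listed liver transcription factors were at 47.6% and 51.9%. Among genes of the growth hormone axis, Igfbp3, a binding protein of IGFs, had 20 regions (45.0% and 52.0%) and Igf1 3 (33.3% and 56.7%), with 0 calls. Cyp7b1, an oxysterol hydroxylase, had 12 remote regions at 39.6% and 39.2%, also with 0 calls. These percentages are sums over a few neighbouring regions and were not tested.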

How the data were processed

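DNase-seq of 18 individual livers was read from 1 peak list per liver. Reads were aligned to mm9 with Bowtie2, per the submitters' processing notes, and peaks called with MACS2 2.1.0.20150731 (shift -100, extension 200, q cutoff 0.05, all duplicates kept, no control), per the file headers. The deposited lists give pileup, the read coverage at the summit, fold enrichment, the ratio of that pileup to the local background, and -log10 p and q values, all computed by the authors in MACS2 for each library on its own, with no scaling between libraries. A call therefore depends on depth and signal-to-noise. The authors' lists of pooled reads per class were used only where named.

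Peaks were merged into union regions, and a liver occupied a region if 1 of its peaks overlapped it by 1 bp. Distances are to GENCODE vM1 starts, and sequences were read from the mm9 genome. Presence was tested by Fisher's exact test (Benjamini-Hochberg over regions in 5 to 13 livers), and values per liver by exact permutation, with scipy 1.17.1, numpy 2.4.6 and pandas 2.3.3 after a test on simulated data. Within-list percentile is the rank of -log10 q among all peaks of that list. Regions named are all those called in a direction or, above 15, the 12 with the largest difference in share of livers, ranked by p and mean percentile; groups and intervals named are those with the most regions, and list genes were picked for their many regions or for their pathway. Wilson intervals cover counting error only. The members and gene lists were chosen with earlier results of these data known. Alternatives tried were other peak thresholds, distances, starts, overlaps and gaps, each liver left out, and tests by collection or replicate number. Pairs of same-numbered livers had correlations of deviations from -0.0771 to 0.188, so the numbers do not pair livers. Values of some genes are not reported here.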

Additional observations from a re-analysis of the deposited data

Results flagged for a closer look

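Of 28 groups of per-liver values examined, 6 held a liver far from the rest of its class, where chance gives about 1 in 20. In 5 of them it was STAT5_High replicate 4: it occupied 771 remote regions, the fewest; 4.2% of its list lay in them, the lowest share; its median within-list percentile in them, 46.2, was the highest; and it occupied 5 regions of the Myc group and 0 of the Wwox group, the fewest in its class. It also had the shortest list, 18673 peaks, from 15578398 tags, within the range of the other libraries. In the Serp2 group STAT5_Low replicate 8 was the highest of its class, with 16 regions.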

How the results depend on the processing

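With each liver left out in turn, regions called towards STAT5_High numbered 24 to 39 and towards STAT5_Low 3 to 5. With equal numbers of top peaks there were 81 and 3 of 1026 tested, with no share over all union regions given for that setting. Beyond 200 kb there were 14 and 0 of 995 (85 and 35 at an unadjusted p under 0.05) and beyond 50 kb 46 and 4 of 4175. With starts of all annotated transcripts there were 12 and 2 of 1205. Changing distance or starts left the union regions tested unchanged, of which 0.979% and 0.134% were called. The exact test stratified by collection called 0 and 0 (154 and 82 unadjusted), and the replicate block over pairs 1 to 8, an exact sign test, 0 and 0 (90 and 17 unadjusted). Of the 15 named regions, all 15 were called with each liver left out in turn. At a -log10 q of at least 5, 10 were called, 7 with equal numbers of top peaks, and 12 with regions built around summits. The 15 were picked for large differences in these same livers, so their retention is not independent support. None was called in the stratified and blocked tests, in which even complete separation missed the threshold after adjustment. The calls are thus not shown to hold once collection is taken into account. The blocked test decides nothing about them, as same-numbered livers are not pairs. The difference in regions occupied turned to 142 in favour of STAT5_High with equal numbers of top peaks (exact permutation p = 0.0381), and ranged from -406 to -77.1 with livers left out. The class difference in percentile was 1.39 to 3.25 with livers left out, and passed the threshold at 3.42 (-log10 q of at least 5), 6.83 (equal numbers of top peaks) and 2.63 (beyond 200 kb). The percentile of remote minus nearer distal peaks was 0.384 to 1.08 with livers left out and passed at 1.23 (equal numbers of top peaks) and 1.26 (all annotated starts). Of the 8 largest groups 0 to 1 passed with livers left out (1 without STAT5_High replicate 1) and 2 with equal numbers of top peaks, where the Ets1 group turned to 0.6. In 300-base windows the STAT5 motif share was 15.8% in regions without a call and 0% in the 3 called towards STAT5_Low. With the replicate block the difference in regions occupied was -280 (exact permutation p = 0.453), in relative occupancy 4.94 (exact permutation p = 0.0156) and in percentile 2.35 (exact permutation p = 0.195). The relative occupancy and the Jaccard difference kept their direction, with an unadjusted p under 0.05, under the alternatives run over all livers. The same held with each liver left out and with permutation within collections. The replicate block was not run for the Jaccard difference. For relative occupancy its value is no further support, as same-numbered livers are not pairs. Inside single collections neither passed, and in G92 and G99 neither could, as the exact permutation p cannot go below 0.1 there. The relative occupancy rests close to its threshold: its adjusted p was 0.0489, its unadjusted p reached 0.0449 without STAT5_High replicate 3 (3.31 points), and adjustment was not repeated. The cause of these shifts was not tested. Absent peaks are limited by depth, and the 3 livers not analysed here could change each class difference.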
